A study of Glycine max with 12 samples.

Results

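The effect of GmZF351 overexpression on the soybean transcriptome was compared between root and leaf. GmZF351 encodes a tandem CCCH zinc finger protein. Both genotypes, the transgenic line OE-34, called OE here, and the control cultivar Jack, called WT, were grown in pots and sampled at V1, the stage with a fully open first trifoliate leaf. Leaf and root of each genotype made up 4 groups with 3 libraries each, labelled as biological repeats. The labels give a single transgenic line. They give neither the promoter of the transgene, the number of plants behind a library nor the time of day. A p-value therefore measures no more than the spread between libraries. An effect of overexpression means OE against WT throughout. With a single line, the transgene cannot be told apart from other differences between that line and Jack. The quantity of interest was the root effect minus the leaf effect, (OE root minus WT root) minus (OE leaf minus WT leaf) on the log2 scale, called the tissue difference below. It was described for the 30666 of 43517 gene models that had at least 10 counts in each of the 4 groups, summed over replicates, so that an effect could be estimated in both tissues.

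Tandem CCCH zinc finger proteins of plants bind DNA or RNA, and GmZF351 is known for raising oil in soybean seed. The same regulator can act on different genes in leaf and root, because each tissue has its own set of partner proteins and accessible genes. Several pathways followed here run in both organs: the circadian clock, built from morning-phased LHY repressors and evening-phased proteins; light receptors of the phytochrome and cryptochrome families; and the phenylpropanoid route, from which legume roots make isoflavonoids as defence compounds and as signals to rhizobia. Lipoxygenases, which oxidise polyunsaturated fatty acids, include abundant vegetative forms in soybean leaves.

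Of the 12851 gene models left out, 2068 had no count in any library, 4296 fell short of 10 counts in leaf alone, 2188 in root alone and 4299 in both tissues. The overexpressed gene itself was among them. GmZF351 (Glyma.06G290100, chromosome 6, 47897433 to 47899059, Wm82.a2.v1) had 2293, 2430 and 2164 CPM (read counts scaled per library by TMM) in OE leaf, against 1, 0 and 0 counts in WT leaf, and 1387, 1280 and 1398 CPM in OE root, against 0, 4 and 0 counts in WT root. It was 1 of 82 genes that were short in 1 genotype of a tissue while the other genotype held at least 100 counts. In leaf 42 of them were short in OE and 17 in WT, and in root 26 were short in OE and 8 in WT. A gene could count in both tissues, as GmZF351 did. Just inside the limit lay Glyma.10G206900, with 10 counts in OE leaf and 12 in WT leaf but 78859 in OE root and 31474 in WT root. Just outside lay Glyma.18G150000, with 9 counts in OE root and 31 in WT root but 43914 in OE leaf and 64995 in WT leaf.

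Libraries held 16885874 to 19041634 counts, of which the 30666 genes took 92.43% to 93.69%. The Rubisco activase gene RCA11 summed to 736413 counts in OE leaf and 946766 in WT leaf, against 207 in OE root and 211 in WT root. The Nod factor receptor gene NFR5A summed to 0 counts in both leaf groups, 2348 in OE root and 1479 in WT root, and the leghemoglobin genes LBC1, LBC2 and LBC3 had 0 counts in all groups. TMM scaling factors lay between 0.862 and 0.889 for OE leaf libraries and between 0.665 and 0.676 for WT leaf libraries. For root they lay between 1.345 and 1.352 in OE and between 1.249 and 1.276 in WT. An effect of 0 therefore means a change equal to that of most genes. Scaling by total counts instead shifted the median leaf effect to 0.40, the median root effect to 0.08 and the median tissue difference to -0.322. WT root replicate 3 differed from its group's replicates by a median of 0.207 and 0.189 log2 units per gene, where replicates 1 and 2 differed by 0.144, and pairs of WT leaf replicates by 0.185 to 0.229.

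The effect of OE against WT differed between root and leaf for many of the genes that both tissues express. The tissue difference passed edgeR's quasi-likelihood test at a Benjamini-Hochberg adjusted p under 0.05 for 7571 of the 30527 genes tested (24.8%), a share close to the 22.8% of all 35968 tested genes that passed. The remaining 139 of the 30666 fell under the test's own count filter. In 3831 genes (12.5%, against 11.6% of all tested genes) the root effect lay above the leaf effect, and in 3740 (12.3%, against 11.2%) below it. That even split rests on the scaling. RLE scaling gave 4536 above and 3155 below, DESeq2 4718 and 3304, and total counts alone the other way, with 2065 above and 9066 below. Without WT root replicate 3, 7372 genes passed. The tissue difference was at least 2-fold in 2983 called genes (9.77%, against 3610 of all 35968 tested genes) and at least 4-fold in 608 (1.99%, against 3.34%).

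Effects were wider in leaf than in root. In leaf 12914 of the 30527 genes (42.3%, against 40.4% of all tested genes) passed the OE against WT test, and in root 9281 (30.4%, against 30.1%). The leaf effect had a standard deviation over genes of 0.73 and a median absolute value of 0.35, and the root effect 0.55 and 0.25, all on the log2 scale. The median standard error of an effect was 0.153 in leaf and 0.144 in root, so precision was similar in both tissues, and that of the tissue difference was 0.218. In bulk tissue, a loss of cells of 1 type and a lower transcript level per cell cannot be told apart, and this holds for each effect below.

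**Figure D1:**
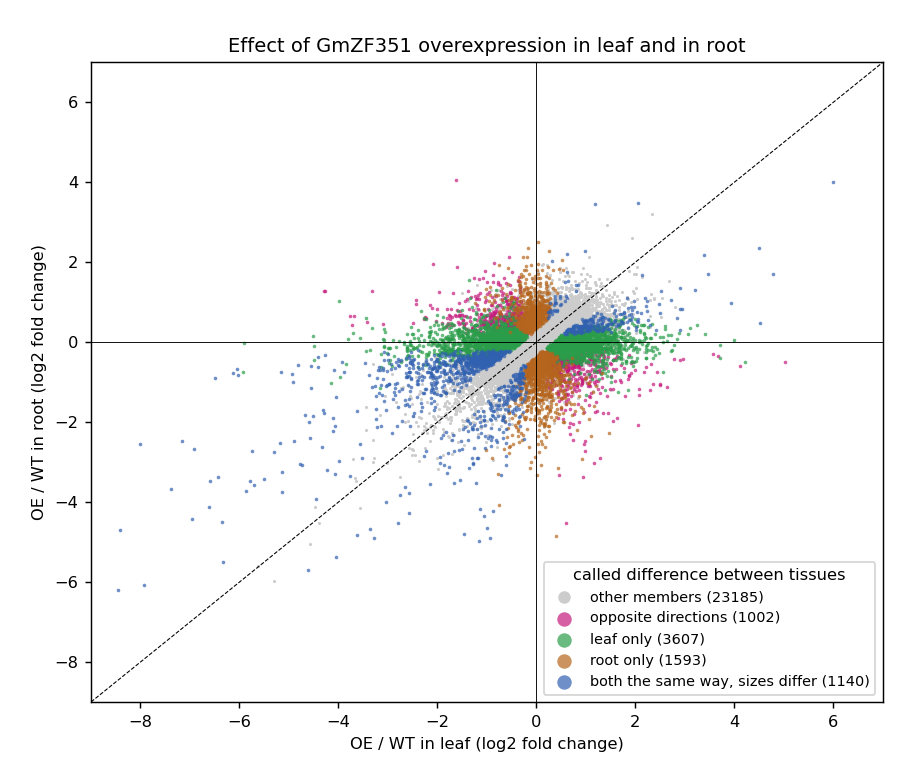
Each point is 1 of the 30527 tested genes with at least 10 counts in every group, with its OE over WT log2 fold change in leaf on the horizontal axis and in root on the vertical axis; the dashed line marks equal effects. Coloured points passed the test of the tissue difference: 3607 changed in leaf alone, 1593 in root alone, 1002 in opposite directions and 1140 in both the same way with different sizes.

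A change in leaf with no call in root was the most frequent form. Of the 7571 called genes, 1875 fell in leaf alone and 1732 rose in leaf alone, while 935 fell in root alone and 658 rose in root alone. The falls in root alone made up 3.06% of the 30527 genes, against 2.84% of all tested genes. The other classes were not counted over all tested genes, so their shares cannot be set against that background. Opposite calls numbered 1002, of which 510 rose in leaf and fell in root and 492 did the reverse. The same direction with unequal size was found for 1140, with 654 falling further in leaf, 241 falling further in root, 208 rising further in leaf and 37 rising further in root. In 229 genes neither tissue effect passed by itself. The opposite calls depend on where the zero of each effect is placed: of the 1002, 921 were opposite calls under RLE scaling, 825 under upper-quartile scaling and 549 under total counts.

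A call in 1 tissue alone often came without a called tissue difference. Of 7642 genes called in leaf alone, 3607 (47.2%) had a called tissue difference, and of 4009 called in root alone, 1593 (39.7%). For the others a difference between the tissues was not shown. Among the 5272 genes called in both tissues, 4270 moved the same way, and 3130 of these had no called tissue difference.

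**Figure D2:**
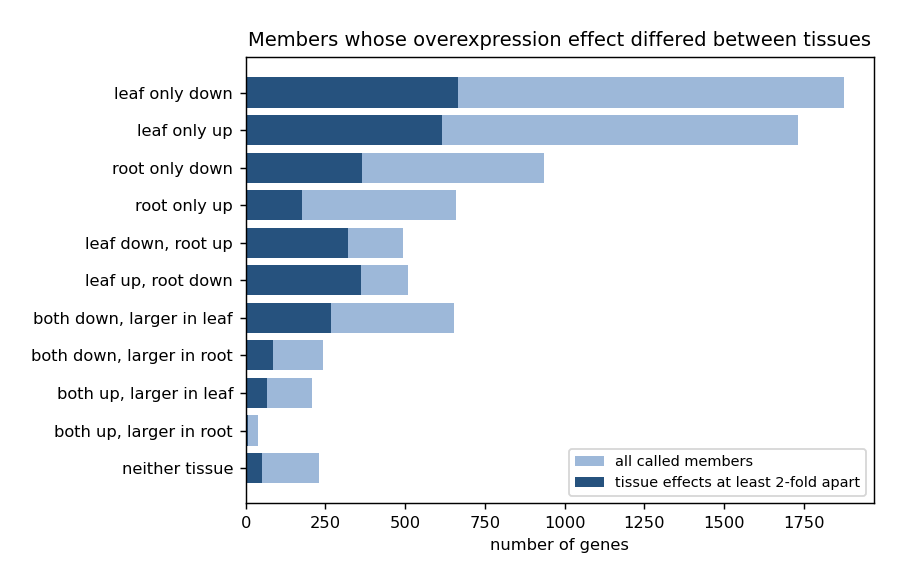
Bars give the number of genes with a called tissue difference in each class of leaf and root effect, and the dark part gives those with effects at least 2-fold apart. Leaf only down (1875 genes) and leaf only up (1732) are the longest bars, and the opposite classes have the largest dark share, 321 of 492 and 361 of 510.

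The genes named for each class are those with the largest tissue difference among genes at 10 CPM or more in 1 genotype of each tissue, with OE and WT values that do not overlap where an effect was called. They need not have the largest difference of their class, and the lack of overlap is a condition of the choice. Genes that rose in leaf and fell in root had a median leaf effect of 0.66 and a median root effect of -0.53. Glyma.18G086600 (chromosome 18, 8602778 to 8606540) stood at 13.1, 13.3 and 14.6 CPM in OE leaf, against 0.248, 0.246 and 0.742 CPM in WT leaf. Root levels were 7.60, 6.85 and 8.003 CPM in OE, against 9.87, 9.94 and 11.6 CPM in WT. OE libraries were high in leaf and low in root relative to WT. Its tissue difference was -5.51 (SE 0.318, edgeR adjusted p = 7e-15), made of a leaf effect of 5.03 and a root effect of -0.49. Glyma.18G030700 (chromosome 18, 2355461 to 2359061) stood at 42.4, 38.7 and 38.4 CPM in OE leaf, against 2.31, 2.30 and 2.22 CPM in WT leaf. The root values were 12.9, 13.04 and 11.2 CPM in OE, against 16.88, 14.9 and 23.9 CPM in WT. Its OE values were likewise high in leaf and low in root, and the tissue difference was -4.71 (SE 0.225, edgeR adjusted p = 7.64e-17). Glyma.06G043000 (chromosome 6, 3285792 to 3287447) followed with -3.87 (SE 0.223). Its leaf effect was 3.57 and its root effect -0.30, and the root call ended under upper-quartile scaling (edgeR adjusted p = 0.0985) and under total counts (0.147).

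Genes that fell in leaf and rose in root had a median leaf effect of -0.61 and a median root effect of 0.52. Glyma.10G193500 (chromosome 10, 42564218 to 42568587) stood at 11.1, 10.8 and 11.7 CPM in OE leaf, against 176, 134 and 149 CPM in WT leaf. Its levels in root were 38.5, 41.6 and 40.5 CPM in OE, against 20.9, 23.8 and 31.99 CPM in WT. OE was low in leaf and high in root relative to WT, and the tissue difference was 4.43 (SE 0.173, edgeR adjusted p = 2.65e-17). Glyma.20G196900 (chromosome 20, 43459811 to 43464110) stood at 31.2, 32.7 and 31.2 CPM in OE leaf, against 345, 324 and 345 CPM in WT leaf. In root it was at 49.2, 49.0 and 46.9 CPM in OE, against 37.4, 31.1 and 33.7 CPM in WT. OE was again low in leaf and high in root relative to WT, and the tissue difference was 3.92 (SE 0.119, edgeR adjusted p = 9.1e-22). Glyma.05G010600 (chromosome 5, 931676 to 938586) had a leaf effect of -2.0, a root effect of 0.84 and a tissue difference of 2.85 (SE 0.215).

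Among genes that fell in leaf alone, Glyma.03G139900 (chromosome 3, 35632837 to 35633771) was at 0.181, 0.427 and 0.267 CPM in OE leaf, against 14.2, 21.99 and 17.1 CPM in WT leaf. Root levels were 15.8, 14.7 and 13.8 CPM in OE, against 14.5, 15.2 and 15.02 CPM in WT. The leaf values were far apart between genotypes while the root values overlapped, and the tissue difference was 5.88 (SE 0.308, edgeR adjusted p = 7.63e-16). Glyma.03G100500 (chromosome 3, 28960040 to 28964320) showed the same form, with a leaf effect of -4.52, a root effect of 0.16 (edgeR adjusted p = 0.427) and a tissue difference of 4.68 (SE 0.267). The third was the lipoxygenase gene LOX10, described with its family below.

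Among genes that rose in leaf alone, Glyma.14G056300 (chromosome 14, 4486582 to 4487905) was at 9.09, 11.03 and 10.5 CPM in OE leaf, against 0.248, 0.492 and 1.15 CPM in WT leaf. The root values were 19.8, 17.1 and 19.5 CPM in OE, against 20.9, 20.2 and 13.03 CPM in WT. WT leaf was the only group in which the gene was scarce, and the tissue difference was -3.94 (SE 0.348, edgeR adjusted p = 5.12e-10). Glyma.13G272500 (chromosome 13, 37446151 to 37449812) had -2.84 (SE 0.226) and Glyma.12G101800 (chromosome 12, 8998818 to 9001294) -2.65 (SE 0.209). Their leaf effects were 3.06 and 2.88, and their root effects 0.22 and 0.24, with root adjusted p of 0.18 and 0.171 in edgeR. Under total counts the root effect of Glyma.13G272500 passed (0.31, edgeR adjusted p = 0.0421).

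Of genes that fell in root alone, 78 had a tissue difference of at least 4-fold, and of those that rose in root alone, 21. Among root-alone falls that met the limits on level and overlap, Glyma.12G191800 (chromosome 12, 35354173 to 35358248) was at 4.47, 5.10 and 5.34 CPM in OE root, against 27.6, 24.1 and 25.7 CPM in WT root. Leaf levels were 44.5, 44.1 and 40.7 CPM in OE, against 35.3, 40.0 and 37.2 CPM in WT. Root values fell apart by genotype, and the leaf effect of 0.20 did not pass (edgeR adjusted p = 0.104), giving a tissue difference of -2.57 (SE 0.15, edgeR adjusted p = 8.56e-15). Glyma.01G193600 (chromosome 1, 52814304 to 52820173) and Glyma.06G262700 (chromosome 6, 44993233 to 44998019) had root effects of -2.21 and -1.62 and leaf effects of 0.25 and 0.22. Upper-quartile and total-count scaling brought the leaf rise of all 3 genes past the threshold, up to 0.64 for Glyma.01G193600 under total counts.

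Of rises in root alone that met the same limits, Glyma.13G333100 (chromosome 13, 42710256 to 42711669) had the largest tissue difference, with 14.4, 13.04 and 16.2 CPM in OE root, against 2.35, 3.02 and 3.17 CPM in WT root. The leaf values were 29.2, 30.4 and 28.9 CPM in OE, against 30.7, 37.3 and 32.2 CPM in WT. The leaf values lay close together, with a leaf effect of -0.18 (edgeR adjusted p = 0.215), and the tissue difference was 2.53 (SE 0.182, edgeR adjusted p = 1.58e-12). Glyma.10G214200 (chromosome 10, 44640345 to 44645298) was at 212, 193 and 189 CPM in OE root, against 74.7, 73.9 and 62.9 CPM in WT root, and its leaf effect was -0.24 (edgeR adjusted p = 0.0569). Its leaf effect passed under RLE scaling, at -0.29 (edgeR adjusted p = 0.0174). Glyma.16G037900 (chromosome 16, 3584655 to 3585466) had a tissue difference of 1.74 (SE 0.334).

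Genes that fell in both tissues but further in leaf included near-complete losses. Glyma.17G242900 (chromosome 17, 39879023 to 39885071) was at 0.301, 0.244 and 0.200 CPM in OE leaf, against 68.9, 63.4 and 67.1 CPM in WT leaf. Its levels in root were 13.4, 13.9 and 15.1 CPM in OE, against 84.6, 79.3 and 84.9 CPM in WT. The falls differed by 5.47 (SE 0.239, edgeR adjusted p = 7.87e-18). Glyma.06G104600 (chromosome 6, 8335742 to 8339836) fell by 6.49 in leaf and 0.90 in root, and Glyma.05G236800 (chromosome 5, 41318276 to 41321678) by 6.14 in leaf and 0.77 in root, for tissue differences of 5.58 (SE 0.198) and 5.37 (SE 0.249).

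The mirror case, a larger fall in root, included Glyma.05G247800 (chromosome 5, 42105777 to 42107998), with 3.67, 2.201 and 3.23 CPM in OE root, against 86.3, 98.4 and 102 CPM in WT root. In leaf it kept 250, 255 and 247 CPM in OE, against 550, 563 and 556 CPM in WT. OE was low in both tissues and lowest in root, and the tissue difference was -3.83 (SE 0.15, edgeR adjusted p = 5.33e-19). Glyma.10G293500 (chromosome 10, 51103542 to 51107669) was at 0.543, 0.938 and 1.08 CPM in OE root, against 21.9, 20.9 and 21.5 CPM in WT root. Its leaf level was high in both genotypes, at 1578, 1703 and 1545 CPM in OE and 3329, 3212 and 3075 CPM in WT, and the tissue difference was -3.64 (SE 0.182). Glyma.04G076900 (chromosome 4, 6467994 to 6471180) had -3.34 (SE 0.176).

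Common rises of unequal size were rarer. Glyma.18G226500 (chromosome 18, 51507715 to 51550797) was at 34.0, 29.9 and 42.04 CPM in OE leaf, against 2.39, 0.328 and 1.90 CPM in WT leaf. In root it was at 417, 523 and 396 CPM in OE, against 309, 319 and 324 CPM in WT. Its leaf rise exceeded its root rise of 0.49, giving a tissue difference of -4.03 (SE 0.354, edgeR adjusted p = 1.64e-06). Glyma.08G317700 (chromosome 8, 43716671 to 43721093) and Glyma.04G091800 (chromosome 4, 8103468 to 8105859) had -3.08 (SE 0.38) and -2.23 (SE 0.143). A larger rise in root was seen in Glyma.15G100100 (chromosome 15, 7780123 to 7783583), which was at 12.9, 12.5 and 13.5 CPM in OE root, against 2.68, 3.20 and 3.67 CPM in WT root, and rose by 0.32 in leaf, a tissue difference of 1.70 (SE 0.161). Glyma.15G103700 (chromosome 15, 8080974 to 8087923) had 0.77 (SE 0.166). The third of this class, Glyma.07G020400 (chromosome 7, 1599490 to 1600647), had 0.92 (SE 0.306, edgeR adjusted p = 0.0442), and its call ended without any 1 of 10 of the 12 libraries, with adjusted p up to 0.12, and under total counts and DESeq2.

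For other genes the data bound the tissue difference closely. Its 95% interval lay wholly within 0.5 log2 units either side of 0 for 5267 genes (17.3%), and none of these had a called tissue difference. Of them, 1355 were called the same way in both tissues, 564 up and 791 down, and 3034 were called in neither tissue. The strongest common fall was that of Glyma.06G028200 (chromosome 6, 2196938 to 2202255), at 2.95, 3.11 and 3.73 CPM in OE leaf, against 160, 166 and 158 CPM in WT leaf. Root levels were 1.46, 1.101 and 1.59 CPM in OE, against 61.5, 69.0 and 70.2 CPM in WT. The effects of -5.63 in leaf and -5.59 in root differed by 0.04, with an interval of -0.41 to 0.50. Glyma.18G025500 (chromosome 18, 1879117 to 1887759) had -2.49 in leaf and -2.29 in root, and Glyma.10G286500 (chromosome 10, 50616892 to 50620159) -2.31 and -2.27.

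Shared rises were more modest. Glyma.01G167700 (chromosome 1, 50530240 to 50531768) was at 515, 584 and 500 CPM in OE leaf, against 264, 218 and 278 CPM in WT leaf. The root values were 158, 149 and 155 CPM in OE, against 67.1, 71.3 and 54.9 CPM in WT. OE values were above WT in both tissues, and the effects of 1.07 and 1.26 differed by 0.18, with an interval of -0.09 to 0.46. Glyma.15G115000 (chromosome 15, 9045318 to 9047577) rose by 1.17 in leaf and 1.0 in root, and Glyma.20G089900 (chromosome 20, 33216637 to 33217516) by 1.04 and 1.02. Under total counts the tissue difference of Glyma.15G115000 passed, at -0.45 (edgeR adjusted p = 0.00344).

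The remaining 17689 genes (57.9%) had neither a called tissue difference nor an interval within 0.5, so their tissues cannot be said to act alike or apart. Their median level was 7.16 CPM, against 20.3 CPM in called genes and 30.4 CPM in genes with an interval within 0.5. In 5 bins of equal size by mean level, the share with a called tissue difference was 10.8% in the lowest bin (0.285 to 3.79 CPM), 19.7%, 24.9% and 28.7% in the next bins and 39.9% in the highest (above 34.3 CPM). The median standard error of the tissue difference ran the other way, at 0.52 in the lowest bin and 0.13 in the highest. Calls were spread over the genome, making up 21.5% of the tested genes on chromosome 5 and 27.6% on chromosome 18, with the other chromosomes between. The longest run of neighbouring genes called in the same direction held 7 genes, Glyma.07G265800 to Glyma.07G266500 (chromosome 7, 43967968 to 44021214), all with the root effect below the leaf effect.

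The tissue difference can also be read as a change in how far root and leaf differ. OE root minus OE leaf and WT root minus WT leaf use separate libraries, and their difference is the same quantity. Over the 30527 genes, the median absolute log2 difference between root and leaf was 0.85 in OE and 0.90 in WT, and it was smaller in OE for 16711 genes (54.7%). Genes higher in root had a median of 0.76 in OE and 0.86 in WT (smaller in OE for 57.5%), and genes higher in leaf 0.96 in OE and 0.95 in WT (51.9%). RLE scaling gave 52.4% for genes higher in root and 56.6% for genes higher in leaf, so the side with the larger share depends on the scaling. Total counts gave 0.98 in OE and 1.35 in WT for genes higher in root (76.9%) and the reverse, 1.36 in OE and 1.13 in WT, for genes higher in leaf (37.0%). This split and its scalings were added after the values were seen. Among the 7571 called genes the median was 1.19 in OE and 1.33 in WT, with the difference smaller in OE for 4422 (58.4%). A root to leaf difference of at least 2-fold passed for 13501 of the 30527 genes in OE and 14053 in WT. Neither count was taken over all tested genes.

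Genes with a strong bias to 1 tissue had called tissue differences more often. Level was not matched in this comparison, and the called share also rose with level, from 10.8% in the lowest bin to 39.9% in the highest. Sorted by the root over leaf ratio averaged over genotypes, the called share was 37.3% of the 1581 genes over 16-fold higher in leaf, 19.5% of the 16833 genes within 2-fold and 32.8% of the 670 genes over 16-fold higher in root. Among the first, the median leaf effect was -0.45, with 61.7% of genes falling and 12.7% rising in leaf, and the median root effect was -0.16. Among the last, the median root effect was -0.22, with 43.6% falling and 15.4% rising in root, and the median leaf effect was -0.31. Falls outnumbered rises in the other tissue as well. The genes most biased to leaf fell in root in 23.6% and rose in 8.86%. Those most biased to root fell in leaf in 28.1% and rose in 9.4%. Genes strongly biased to a tissue thus fell more often than they rose in both tissues. Over all 30527 genes, 22.6% fell and 19.7% rose in leaf (against 22.1% and 18.3% of all tested genes), and 17.8% fell and 12.6% rose in root (against 6512 and 4310 of all 35968 tested genes). Under total counts the median leaf effect of all the genes was 0.40, so the sign of these medians in leaf holds relative to most genes.

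**Figure D3:**
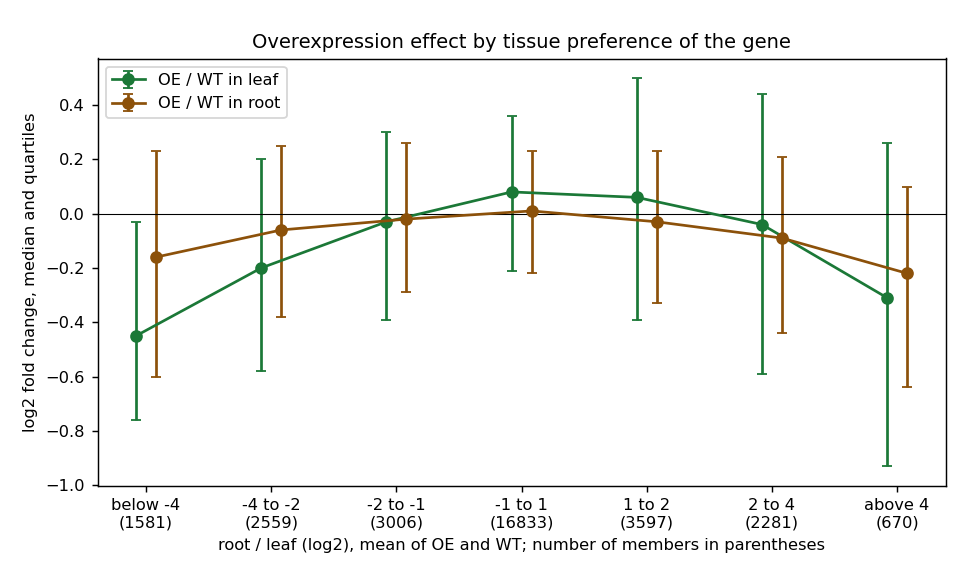
Points give the median OE over WT log2 fold change in leaf (green) and root (brown), and bars the quartiles over genes, for genes sorted by root over leaf expression averaged over both genotypes. The medians lie at -0.45 in leaf for the genes most biased to leaf and at 0.08 in leaf and 0.01 in root for genes within 2-fold.

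In 479 genes the order of the tissues turned, with root above leaf in 1 genotype and leaf above root in the other, both differences called. Root was higher in OE and leaf in WT for 235, and leaf was higher in OE and root in WT for 244. Turned genes were not counted over all tested genes. Glyma.10G193500, described above, was higher in root in OE and higher in leaf in WT, and Glyma.18G030700 the reverse. Glyma.19G245400 (chromosome 19, 49238744 to 49239912) was at 2.09, 2.32 and 1.55 CPM in OE root and 0.301, 0.487 and 0.666 CPM in OE leaf. In WT it was at 0.752, 1.13 and 0.543 CPM in root and 5.197, 4.51 and 4.86 CPM in leaf. Its tissue difference was 4.61 (SE 0.495), on low levels. Glyma.15G042500 (chromosome 15, 3339156 to 3341447) turned the other way, with -4.13 (SE 0.645), and did not exceed 2.41 CPM in any library. These 4 genes were chosen after their values were seen.

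The named genes came from lists of pathways whose identifiers were written from general knowledge and matched to RefSeq symbols by chromosome and span, so a name is less certain than an identifier. Where the 2 sources differed, for 24 of the 112 names kept, the RefSeq name is used. Of the 112 names, 72 met the count limit and were tested. Of these, 32 (44.4%) had a called tissue difference, where 24.8% of all genes meeting the limit had one. The root effect was above the leaf effect in 11 and below it in 21. The lists were chosen with earlier results of these data known. The called share also rose with level, from 10.8% in the lowest of 5 bins to 39.9% in the highest. The 44.4% therefore cannot be read as a trait of these pathways. The 40 names that fell short included NFR5A and the seed storage protein gene GY4, which had 0 counts in every group.

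Clock genes moved in both directions. Levels of clock transcripts change over the day, and the labels give no sampling times for either tissue or genotype. The part of sampling time in these values was not tested. The 4 LHY genes, which encode morning-phased MYB repressors, all had a root effect above the leaf effect, while PRR3B, ELF3A and LUXC had it below. Of 10 clock genes tested, 4 were called above, 3 below and 3 were not called. Among all 30527 genes, 12.5% were called above and 12.3% below. The median tissue difference of the list was -0.22, against -0.036 over all genes. LHY2b (Glyma.03G261800, chromosome 3, 45502100 to 45510812) was at 251, 255 and 248 CPM in OE root, against 154, 148 and 143 CPM in WT root. Its levels in leaf were 2032, 1818 and 2036 CPM in OE, against 2387, 2115 and 2282 CPM in WT. OE values were all above WT in root and all below WT in leaf, and the tissue difference was 0.97 (SE 0.113, edgeR adjusted p = 6.1e-08). LHY1a (Glyma.16G017400, chromosome 16, 1526133 to 1539596) was at 633, 662 and 640 CPM in OE root, against 476, 478 and 513 CPM in WT root. In leaf it was at 1815, 1728 and 1913 CPM in OE, against 2325, 2108 and 2128 CPM in WT. The genotypes did not overlap in either tissue, and the tissue difference was 0.67 (SE 0.111, edgeR adjusted p = 2.68e-05).

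The other two copies, LHY2a (Glyma.19G260900) and LHY1b (Glyma.07G048500), rose by 0.47 and 0.38 in root and had leaf effects of -0.19 and -0.11 that did not pass, for tissue differences of 0.66 (SE 0.114) and 0.50 (SE 0.118). Under total counts the leaf effects of all 4 LHY genes were positive, between 0.12 for LHY1a and 0.27 for LHY1b, the leaf fall of LHY2b ended already under upper-quartile scaling (edgeR adjusted p = 0.176), and the tissue difference of LHY1b no longer passed (0.21, edgeR adjusted p = 0.186). Reads shared between near-identical copies were not counted, so the values of single LHY copies are uncertain.

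PRR3B (Glyma.12G073900, chromosome 12, 5508365 to 5522772), a pseudo-response regulator of the clock, was at 26.2, 19.1 and 26.3 CPM in OE leaf, against 11.4, 5.74 and 11.9 CPM in WT leaf. Its levels in root were 14.9, 14.4 and 14.97 CPM in OE, against 12.9, 12.1 and 14.3 CPM in WT. The gap between genotypes was wide in leaf and narrow in root, and the tissue difference was -1.13 (SE 0.238, edgeR adjusted p = 0.000807). The evening complex gene ELF3A (Glyma.04G050200) fell by 0.59 in root with a leaf effect of 0.10, a tissue difference of -0.69 (SE 0.189), and under total counts the leaf effect passed at 0.48. LUXC (Glyma.11G136600), of the same complex, had -0.93 (SE 0.339, edgeR adjusted p = 0.0454), and this call ended without any 1 of 8 libraries, with adjusted p up to 0.136, and under RLE scaling and DESeq2. GIa (Glyma.10G221500), the GIGANTEA gene of maturity locus E2, rose by 1.48 in leaf and 1.19 in root, with an interval of the tissue difference of -0.58 to 0.01. ELF3B and TOC1b were not called, at -0.49 (SE 0.213) and -0.16 (SE 0.333). Without WT leaf replicate 1 both passed, at -0.64 (edgeR adjusted p = 0.0389) and -0.86 (0.0397). Total counts brought ELF3B (-0.78) and GIa (-0.57) past the threshold as well.

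All 7 light receptor genes had a tissue difference below 0, as 52.9% of all 30527 genes did, and 4 passed, where 12.3% of all genes were called below 0. The list had a median leaf effect of 0.45 and a median root effect of 0.22. PHYA1 (Glyma.10G141400, chromosome 10, 37489560 to 37495624), a phytochrome A gene, was at 52.1, 49.4 and 48.9 CPM in OE leaf, against 26.4, 26.8 and 25.4 CPM in WT leaf. In root it was at 26.96, 25.5 and 24.6 CPM in OE, against 20.6, 20.9 and 17.7 CPM in WT. It rose in both tissues, further in leaf, with a tissue difference of -0.55 (SE 0.136, edgeR adjusted p = 0.00269). PHYA2 (Glyma.20G090000), the phytochrome A gene of locus E4, likewise rose by 0.95 in leaf and 0.53 in root, a difference of -0.42 (SE 0.124). PHYA3 (Glyma.19G224200), that of locus E3, took another form, falling by 0.76 in root with a leaf effect of -0.15, and its tissue difference was -0.61 (SE 0.193, edgeR adjusted p = 0.0204), or adjusted p = 0.0577 without WT leaf replicate 2. The cryptochrome gene CRY2A1 (Glyma.10G180600) rose by 0.45 in leaf, with a root effect of 0.12. Its tissue difference of -0.33 (edgeR adjusted p = 0.0349) ended without any 1 of 6 libraries, with adjusted p up to 0.103, and under RLE scaling.

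**Figure D4:**
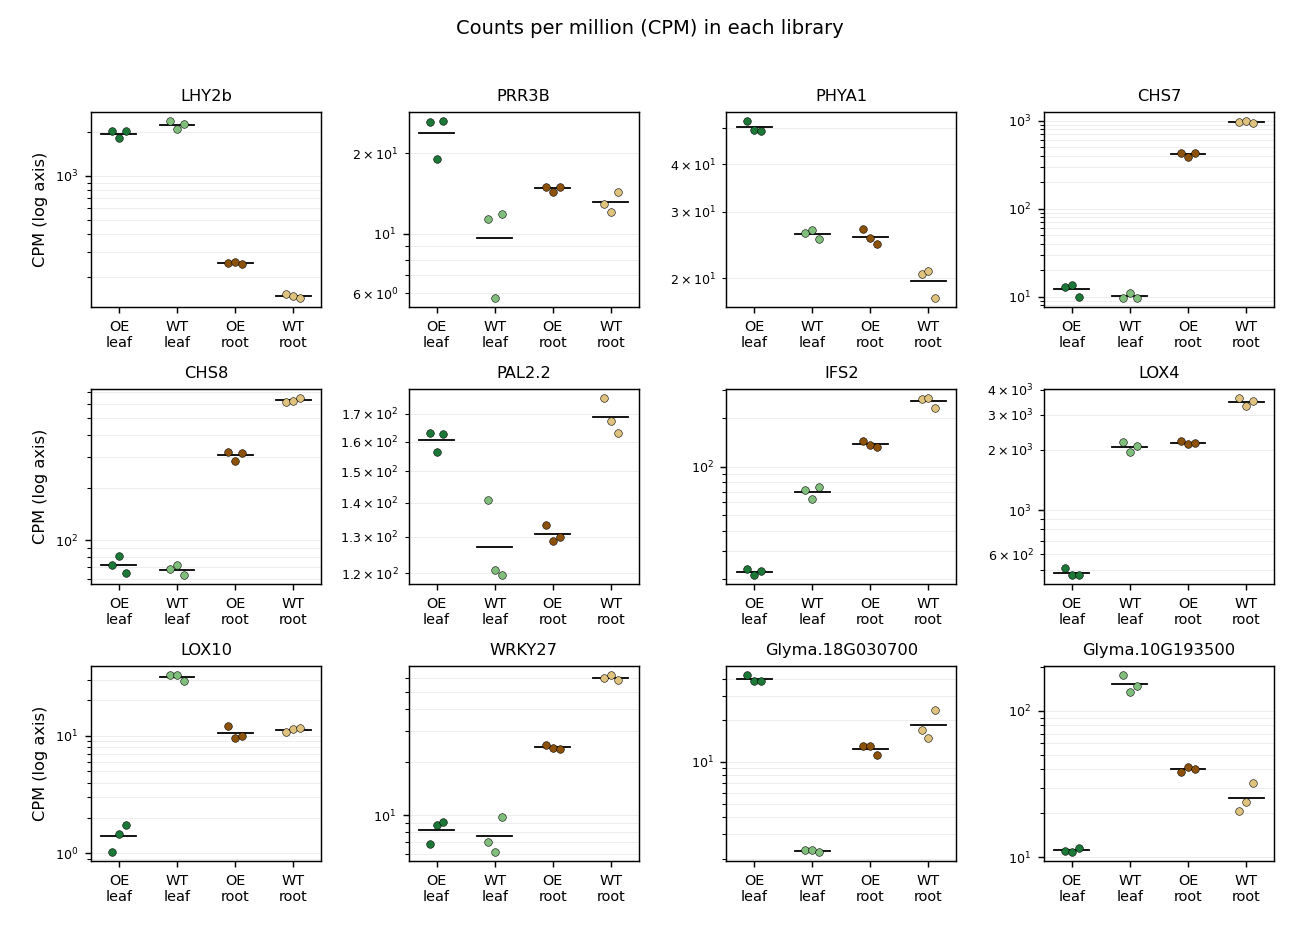
Each point is 1 library, with CPM on a log axis, for 12 genes, with OE left of WT in each tissue; lines mark group means. CHS7 and CHS8 differ between genotypes in root and overlap in leaf, LOX10 differs in leaf and overlaps in root, and PAL2.2 and Glyma.18G030700 are higher in OE leaf than WT leaf and lower in OE root than WT root.

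Of 10 tested genes at the entry of phenylpropanoid synthesis, 6 had a called tissue difference below 0 and none above. Among all 30527 genes, 12.3% were called below 0 and 12.5% above. The list had median effects of -0.11 in leaf and -0.37 in root and a median tissue difference of -0.46. Phenylalanine ammonia-lyase, which makes cinnamate from phenylalanine, accounted for 5 of the 6. PAL2.2 (Glyma.20G180800, chromosome 20, 41891638 to 41898451) was at 163, 156 and 163 CPM in OE leaf, against 141, 121 and 120 CPM in WT leaf. Root levels were 134, 129 and 130 CPM in OE, against 176, 167 and 163 CPM in WT. It rose in leaf and fell in root with no overlap, a tissue difference of -0.71 (SE 0.112, edgeR adjusted p = 1.12e-05). PAL2.3 (Glyma.13G145000, chromosome 13, 25758490 to 25763596) was at 180, 167 and 175 CPM in OE root, against 308, 306 and 312 CPM in WT root, and overlapped between genotypes in leaf, where it lay between 366 and 383 CPM in OE and between 355 and 381 CPM in WT. Its tissue difference was -0.87 (SE 0.105), and under total counts its leaf effect passed at 0.42. PAL1.3 (Glyma.03G181600) also fell in root alone, with -1.19 (SE 0.186), and PAL2.1 (Glyma.10G058200) rose in leaf alone, with -0.54 (SE 0.11).

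PAL3.1 (Glyma.02G309300, chromosome 2, 48287101 to 48289732) was at 4.93, 7.49 and 5.53 CPM in OE leaf, against 0.165, 0.656 and 0.330 CPM in WT leaf. The root values were 23.2, 21.0 and 21.3 CPM in OE, against 9.17, 10.8 and 13.1 CPM in WT. It rose in both tissues, further in leaf, with a tissue difference of -2.96 (SE 0.388, edgeR adjusted p = 5.04e-07). PAL1.1 (Glyma.19G182300) fell in both, by 0.84 in leaf and 1.03 in root, with an interval of the difference of -0.45 to 0.06, and its tissue difference passed under total counts (-0.48, edgeR adjusted p = 0.00288). The 4-coumarate:CoA ligase gene 4CL1 (Glyma.17G064600) fell by 0.32 in leaf and 0.71 in root, the leaf effect being 0.06 under total counts (edgeR adjusted p = 0.592). Its tissue difference of -0.39 (edgeR adjusted p = 0.0204) ended without any 1 of 5 libraries, with adjusted p up to 0.067, and under RLE scaling.

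Of 11 flavonoid genes tested, CHS7, CHS8, IFS1 and CHI1A fell in root with no called change in leaf and a called tissue difference, a form shown by 935 of the 30527 genes (3.06%). Of the 11, 5 had a called tissue difference below 0 and 1 above, where 12.3% and 12.5% of the 30527 genes did. The list had a median leaf effect of 0.12 and a median root effect of -0.45. Chalcone synthase makes the first flavonoid precursor. CHS7 (Glyma.01G228700, chromosome 1, 55659010 to 55660950) was at 434, 389 and 425 CPM in OE root, against 963, 990 and 932 CPM in WT root. In leaf it was scarce, at 13.03, 13.7 and 9.86 CPM in OE, against 9.65, 11.1 and 9.56 CPM in WT. The root values were clearly separate and the leaf values overlapped, with a tissue difference of -1.48 (SE 0.149, edgeR adjusted p = 2.97e-09). CHS8 (Glyma.11G011500, chromosome 11, 802453 to 804663) was at 320, 282 and 314 CPM in OE root, against 615, 624 and 649 CPM in WT root. Leaf levels were 72.0, 81.0 and 64.8 CPM in OE, against 68.7, 72.4 and 63.1 CPM in WT. It followed the same form, with -1.14 (SE 0.122). Upper-quartile scaling brought a leaf rise of CHS7 past the threshold (0.34, edgeR adjusted p = 0.0257), and under total counts the leaf effects of CHS7, CHS8, IFS1 and CHI1A all passed, at 0.65, 0.47, 0.50 and 0.41, with no change in the direction of the tissue difference.

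The pair of isoflavone synthase genes both fell in root and had tissue differences of opposite sign. IFS1 (Glyma.07G202300, chromosome 7, 37166660 to 37169027) was at 612, 600 and 613 CPM in OE root, against 859, 861 and 765 CPM in WT root. The leaf values were 96.9, 100.2 and 86.5 CPM in OE, against 98.2, 82.6 and 81.2 CPM in WT. It fell in root alone, with a tissue difference of -0.56 (SE 0.121, edgeR adjusted p = 0.000727). IFS2 (Glyma.13G173500, chromosome 13, 28761503 to 28763755) was at 23.1, 21.1 and 22.5 CPM in OE leaf, against 71.7, 62.7 and 74.5 CPM in WT leaf. Its levels in root were 145, 136 and 132 CPM in OE, against 265, 267 and 232 CPM in WT. It fell in both tissues, further in leaf, with a tissue difference of 0.76 (SE 0.123, edgeR adjusted p = 1.75e-05). IFS1 and IFS2, like CHS7 and CHS8, are close copies whose shared reads were not counted.

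MYB176 (Glyma.05G032200), a regulator of isoflavonoid synthesis, rose by 0.28 in leaf and fell by 0.23 in root, a tissue difference of -0.52 (SE 0.116, edgeR adjusted p = 0.00107). Its root fall ended under upper-quartile scaling (edgeR adjusted p = 0.0956) and under total counts (0.183). The chalcone isomerase gene CHI1A (Glyma.20G241500) fell by 0.34 in root with a leaf effect of 0.03. Its tissue difference of -0.36 (edgeR adjusted p = 0.0466) ended without any 1 of 8 libraries, with adjusted p up to 0.152, and under RLE scaling and DESeq2. CHI4A, which encodes a chalcone isomerase-like protein, had a tissue difference of -0.01, with an interval of -0.24 to 0.22, and passed under total counts at -0.30 (edgeR adjusted p = 0.042).

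The 3 lipoxygenase genes tested each had a root effect above the leaf effect, as 47.1% of all 30527 genes did. All 3 passed, where 12.5% of all genes were called above 0. LOX10 (Glyma.08G189600, chromosome 8, 15235197 to 15239971) was at 1.02, 1.46 and 1.73 CPM in OE leaf, against 32.8, 32.8 and 29.4 CPM in WT leaf. In root it was at 12.1, 9.54 and 9.99 CPM in OE, against 10.7, 11.5 and 11.6 CPM in WT. The leaf genotypes were far apart and the root values overlapped, for a tissue difference of 4.41 (SE 0.224). LOX4 (Glyma.13G347700, chromosome 13, 43773475 to 43780320), a vegetative lipoxygenase gene, was at 512, 472 and 471 CPM in OE leaf, against 2187, 1958 and 2093 CPM in WT leaf. Root levels were 2220, 2145 and 2157 CPM in OE, against 3636, 3312 and 3510 CPM in WT. It fell without overlap in both tissues, and the leaf effect of -2.1 lay 1.42 (SE 0.113) below the root effect of -0.68. LOX7 (Glyma.13G347800), its neighbour, was at 14.4, 15.1 and 14.2 CPM in OE leaf, against 74.8, 69.8 and 74.3 CPM in WT leaf, and fell by 1.53 in root. Its tissue difference of 0.80 (SE 0.201, edgeR adjusted p = 0.00335) did not pass under total counts (0.52, edgeR adjusted p = 0.052).

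Photosynthesis genes were nearly silent in root, so their root effects rest on few counts. RBCS2 (Glyma.19G046800), a Rubisco small subunit gene, was at 7608, 6305 and 5632 CPM in OE leaf, against 12220, 15630 and 13080 CPM in WT leaf. The root values were 4.93, 4.08 and 5.97 CPM in OE, against 5.50, 4.66 and 5.02 CPM in WT. The fall was seen in leaf alone, a tissue difference of 1.05 (SE 0.198, edgeR adjusted p = 0.000173). RCA14 (Glyma.14G067000), a Rubisco activase gene, was at 892, 936 and 851 CPM in OE leaf, against 1338, 1455 and 1390 CPM in WT leaf. Its levels in root were 0.918, 0.856 and 0.916 CPM in OE, against 3.24, 2.07 and 3.26 CPM in WT. It fell in both tissues, further in root, with -1.02 (SE 0.221). The activase gene RCA11 had 0.55 (SE 0.208, edgeR adjusted p = 0.0562). It passed under RLE scaling (0.61, edgeR adjusted p = 0.0335) and without OE root replicate 2 (0.78, 0.00399). It also passed without the low-count filter (0.55, edgeR adjusted p = 0.0436) and in DESeq2 (0.61, DESeq2 adjusted p = 0.00525). The chlorophyll synthesis gene CHLI1A had 0.20 (SE 0.329).

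Of 14 oil genes tested under a kept name, 1 had a called tissue difference, where 24.8% of all 30527 genes did. An interval within 0.5 was found for 6, against 17.3% of all genes, and the median was 0.03. The called gene of these 14 was FATB1a (Glyma.05G012300, chromosome 5, 1127438 to 1131632), whose thioesterase releases saturated fatty acids. It was at 69.0, 72.4 and 77.2 CPM in OE leaf, against 44.4, 49.2 and 49.7 CPM in WT leaf. In root it was at 34.6, 35.8 and 37.7 CPM in OE, against 35.8, 38.5 and 39.2 CPM in WT. It rose in leaf alone, a tissue difference of -0.68 (SE 0.122, edgeR adjusted p = 6.85e-05). The stearoyl-ACP desaturase gene SACPD-B had an interval of -0.18 to 0.29 and the oleate desaturase gene FAD2-2C of -0.39 to 0.11, and FAD2-2C passed under total counts (-0.42, edgeR adjusted p = 0.00628). For WRI1A and WRI1B, regulators of fatty acid synthesis, the tissue differences of 0.76 (SE 0.414) and -0.15 (SE 0.69) were poorly bounded. The list also held Glyma.12G205700, a tandem CCCH zinc finger gene whose name was not kept, so it was not among the 14. It summed to 222 unscaled counts in OE leaf and 37 in WT leaf, against 93 in OE root and 70 in WT root.

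Among stress genes, WRKY27 (Glyma.15G003300, chromosome 15, 290145 to 292323), a WRKY transcription factor gene, was at 24.9, 24.2 and 23.7 CPM in OE root, against 59.7, 62.3 and 58.0 CPM in WT root. Its levels in leaf were 6.86, 8.83 and 9.13 CPM in OE, against 7.01, 6.15 and 9.72 CPM in WT. The fall was clear in root and the leaf values overlapped, with a tissue difference of -1.42 (SE 0.184, edgeR adjusted p = 4.12e-07), and under total counts its leaf effect passed at 0.50. NHX1 (Glyma.20G229900), a vacuolar sodium/proton exchanger gene, fell by 0.25 in leaf and had a root effect of 0.19. The leaf fall ended under upper-quartile scaling (-0.18, edgeR adjusted p = 0.0975) and was 0.14 under total counts. Its tissue difference of 0.44 (SE 0.119) did not pass under total counts (0.15, edgeR adjusted p = 0.355). The plasma membrane exchanger gene SOS1 had 0.32 (SE 0.15, edgeR adjusted p = 0.124), which passed without OE leaf replicate 1, at 0.51 (edgeR adjusted p = 0.0102), and in DESeq2 (0.38, adjusted p = 0.0479).

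The actin gene ACTIN (Glyma.18G290800), a common reference gene of expression assays, was at 202, 187 and 201 CPM in OE root, against 153, 142 and 126 CPM in WT root. In leaf it was at 111, 127 and 119 CPM in OE, against 128, 146 and 128 CPM in WT. It rose in root, and its tissue difference was 0.66 (SE 0.12, edgeR adjusted p = 7.92e-05). The beta-amylase gene BMY1 fell by 0.81 in leaf and 0.72 in root, the interval of the difference being -0.17 to 0.37, and the alpha-SNAP gene SNAP18 of locus Rhg1 by 0.26 and 0.27, its interval being -0.23 to 0.22. The leaf fall of SNAP18 ended under upper-quartile scaling (edgeR adjusted p = 0.0538). Total counts turned it to 0.12 and gave a called tissue difference of -0.29 (edgeR adjusted p = 0.0357). The vegetative storage protein gene VSPB fell by 1.45 in leaf and 1.97 in root, a difference of -0.53 (SE 0.238, edgeR adjusted p = 0.121). It passed without OE leaf replicate 3 (-0.67, edgeR adjusted p = 0.0427) and under total counts (-0.81, 0.00883). For the receptor kinase gene NARK, which limits nodule number, and the flowering genes DT2 and COL1A the tissue difference did not pass, at 0.24, -0.73 and 0.80. Without WT root replicate 1 those of DT2 and COL1A did, at -0.92 (edgeR adjusted p = 0.0452) and 1.77 (0.0396), and that of DT2 also passed under total counts (-1.02). COL1A was near the floor in root, with 22 counts in OE root and 15 in WT root summed over replicates.

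**Figure D5:**
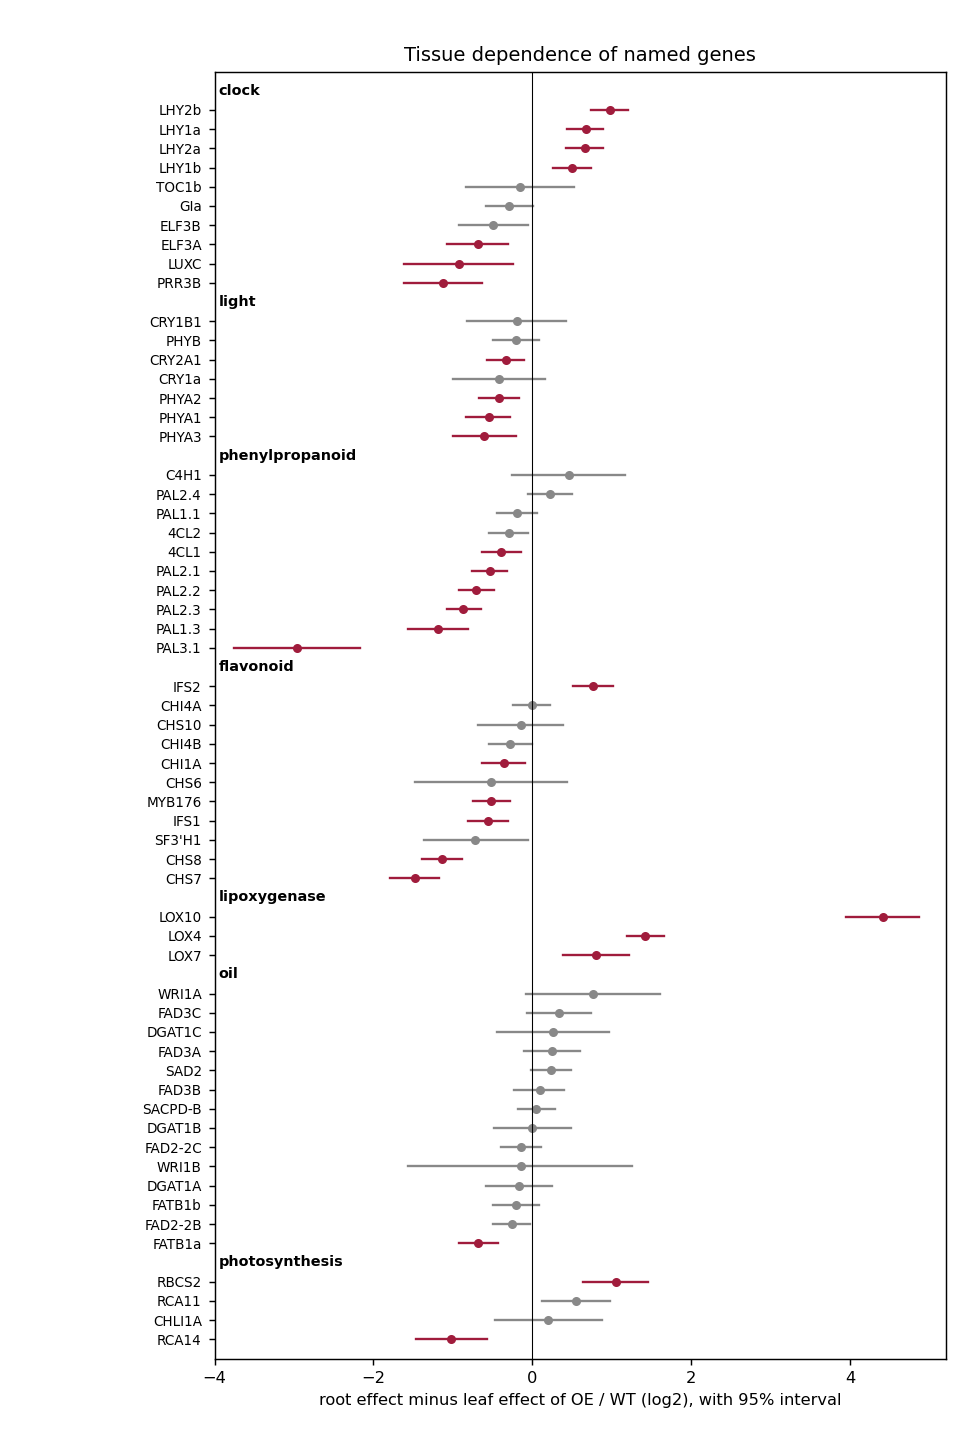
Points give the root effect minus the leaf effect of OE over WT (log2) with 95% intervals for the named genes of 7 lists, sorted within each list; red points passed the test. LHY genes, IFS2, the lipoxygenase genes and RBCS2 lie above 0, and the called phenylpropanoid and light receptor genes lie below 0.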

How the data were processed

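RNA from leaf and root of transgenic and control soybean was sequenced in 12 libraries. The authors counted reads with featureCounts v2.0.1, per the file headers, over exons of Wm82.a2.v1 gene models in paired-end mode with 4 threads; the deposited values are unnormalised counts. The alignment tool was not given in the sources used here. No strand option was set and multi-mapping reads were not counted, per the file headers, so antisense reads cannot be told apart from those of a gene, and near-identical copies lose reads.

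Counts were scaled by TMM and tested in edgeR 4.0.16 (R 4.3.3). The filterByExpr filter left 35968 genes with 99.94% of counts. A robust quasi-likelihood fit with 1 coefficient for each of the 4 groups and 8 residual degrees of freedom gave the effect of overexpression in leaf, the effect in root and their difference, root minus leaf. Its common biological coefficient of variation was 0.0938. Adjusted p-values are Benjamini-Hochberg values over all 35968 genes, and a gene is called under 0.05. Standard errors (SE) and 95% intervals come from the same fit. In a simulation run on 35649 genes, the test found 4% of genes given a 1.25-fold tissue difference and 26% of those given 1.5-fold. It found 72% for a 2-fold difference and 98% for a 4-fold one. Of its 107 calls, 7 were false. The real data gave 8198 calls among all 35968 tested genes, so these simulated rates need not hold for the real data.

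Members have at least 10 counts, summed over replicates, in each group. Genes printed are the 3 with the largest difference in each of 10 classes, the 3 with the largest effects among similar ones in each direction, the members of the named lists, the genes nearest the limit, and 4 genes whose tissue order turned, these last chosen after their values were seen. Class examples needed at least 10 CPM (group mean) in 1 genotype of each tissue and OE and WT values that did not overlap where an effect was called. Names rest on a RefSeq table of assembly Glycine_max_v4.0. It matched 0 of 43517 identifiers, so 112 of 192 listed names were kept where a symbol or synonym on the same chromosome had a genomic span within 10%. The members and lists were chosen with earlier results of these data known. Alternatives were other scalings, DESeq2 1.42.0, other count limits, a replicate block and the removal of each library. DESeq2 values without an adjusted p were left as missing.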

Additional observations from a re-analysis of the deposited data

Results flagged for a closer look

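The results gathered here are those whose effect of overexpression differed between root and leaf by the test of the difference itself, edgeR's quasi-likelihood test of the root effect minus the leaf effect. They number 7571 genes in all, and the values below are log2 tissue differences of the named ones among them.

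Positive values, with the root effect above the leaf effect, were 5.58 for Glyma.06G104600, 5.47 for Glyma.17G242900 and 5.37 for Glyma.05G236800, which fell further in leaf, and 5.88 for Glyma.03G139900, 4.68 for Glyma.03G100500 and 4.41 for LOX10, which fell in leaf alone. Genes that fell in leaf and rose in root had 4.61 (Glyma.19G245400), 4.43 (Glyma.10G193500), 3.92 (Glyma.20G196900) and 2.85 (Glyma.05G010600). Rises in root alone gave 2.53 for Glyma.13G333100, 1.74 for Glyma.16G037900 and 1.72 for Glyma.10G214200, and larger rises in root gave 1.70 for Glyma.15G100100, 0.92 for Glyma.07G020400 and 0.77 for Glyma.15G103700. From the named lists came LOX4 with 1.42, RBCS2 with 1.05, LHY2b with 0.97, LOX7 with 0.80, IFS2 with 0.76, LHY1a with 0.67, LHY2a with 0.66, ACTIN with 0.66, LHY1b with 0.50 and NHX1 with 0.44.

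Negative values, with the root effect below the leaf effect, were -5.51 for Glyma.18G086600, -4.71 for Glyma.18G030700, -4.13 for Glyma.15G042500 and -3.87 for Glyma.06G043000, which rose in leaf and fell in root. Larger rises in leaf gave -4.03 for Glyma.18G226500, -3.08 for Glyma.08G317700 and -2.23 for Glyma.04G091800, and rises in leaf alone gave -3.94 for Glyma.14G056300, -2.84 for Glyma.13G272500 and -2.65 for Glyma.12G101800. Larger falls in root gave -3.83 for Glyma.05G247800, -3.64 for Glyma.10G293500 and -3.34 for Glyma.04G076900, and falls in root alone gave -2.57 for Glyma.12G191800, -2.46 for Glyma.01G193600 and -1.84 for Glyma.06G262700.

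Among the named lists the negative values were -2.96 for PAL3.1, -1.48 for CHS7, -1.42 for WRKY27, -1.19 for PAL1.3, -1.14 for CHS8, -1.13 for PRR3B, -1.02 for RCA14, -0.93 for LUXC and -0.87 for PAL2.3. Smaller ones were -0.71 for PAL2.2, -0.69 for ELF3A, -0.68 for FATB1a, -0.61 for PHYA3, -0.56 for IFS1, -0.55 for PHYA1, -0.54 for PAL2.1, -0.52 for MYB176, -0.42 for PHYA2, -0.39 for 4CL1, -0.36 for CHI1A and -0.33 for CRY2A1.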

How the results depend on the processing

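Counts under RLE and upper-quartile scaling, DESeq2, other count limits and the replicate block stayed within 1.5 times those reported. The root effect was above the leaf effect in 59.0% of called genes under RLE scaling and 58.8% in DESeq2, against 50.6% as reported. Total counts in place of TMM gave 2065 genes with the root effect above and 9066 below, 973 up in leaf and down in root, 286 the reverse and 6485 in leaf alone. Asking for a 2-fold tissue difference left 2983 genes, 1459 above and 1524 below, and a margin of 1 in place of 0.5 put 17852 genes within it. Of the 7571 calls, 76.7% were also called under total counts, and none that stayed called changed sign in any alternative.

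Leaving out 1 library gave 6430 to 7392 called tissue differences, 3294 to 3812 above and 3136 to 3706 below, 11388 to 13623 leaf calls and 7197 to 9871 root calls. The classes ran from 373 to 499 (up in leaf, down in root), 364 to 510 (the reverse), 3069 to 3797 (leaf alone), 1261 to 1673 (root alone), 845 to 1116 (both the same way) and 215 to 266 (neither), and similar effects from 4338 to 5347. Of 2070 values of 109 named genes under 19 alternatives, 1984 kept their call, 52 lost it, 34 gained one and 0 reversed.

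Replicate numbers did not pair the libraries: same-numbered libraries deviated with r of -0.083 to 0.06, and 2 of 12 were closest to their own number. With the replicate block 7143 tissue differences were called, 3664 above and 3479 below, and those of CHI1A and Glyma.07G020400 were not. At low levels the standard error limits what can be called.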
